A study of Homo sapiens with 95 samples.

Results

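The expression of 10 heat shock chaperone genes was described across 32 combinations of genotypic and chemical perturbation of AALE, an immortalized cell line derived from human bronchial epithelium. The genes were taken by symbol from the 27978 genes of the count files and all 10 were listed there. They are HSPA1A, HSPA1B and HSPA8 (the HSP70 family), DNAJB1, HSPH1 and BAG3 (partners of HSP70), HSP90AA1 and HSP90AB1 (the cytosolic HSP90 pair), HSPD1 (the mitochondrial chaperonin) and HSPB1 (a small heat shock protein). With a mean count above 1 as the filter on low counts, 9 of the 10 entered the tests and HSPA1A did not.

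Chaperones bind unfolded or partly folded proteins and keep them from aggregating until they fold, are handed on or are degraded. Under heat or chemical stress the transcription factor HSF1 is released from HSP70 and HSP90, forms trimers and binds heat shock elements in the promoters of chaperone genes. Some family members, such as HSPA8 and HSP90AB1, are expressed at high levels in unstressed cells, while others, such as HSPA1A and HSPA1B, are known mainly for their induction by stress.

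Knockout and overexpression lines were profiled by sparse full length (SFL) sequencing, a pooled RNA-seq method in which barcoded libraries are sequenced together at low depth. The CRISPR knockouts of CDKN2A, a cell cycle inhibitor, and of FAT1, an atypical cadherin, had cells transfected with the Cas9 and EGFP plasmid PX458 without a guide RNA as their control (GFP). The lines overexpressing NRF2 (NFE2L2, a regulator of the oxidative stress response), FGFR1 (a receptor tyrosine kinase), NRG1 (an ERBB receptor ligand) or PIK3CA (the catalytic subunit of PI3K) had a vector carrying the reporter HcRed as theirs (HCRED). Confluent cells of every line received DMSO or one of 3 tobacco-related exposures. CSC is cigarette smoke condensate, given at 24 μg/ml. BaP, the polycyclic hydrocarbon benzo[a]pyrene, was given at 173 μM. NNK, a nitrosamine derived from nicotine, was given at 490 μM. Each combination had 3 libraries, except CSC in the FGFR1 line with 2. The study calls its replicates biological. Whether they came from separate cultures, whether a line was a clone or a pool and the duration of exposure are not given in the sources used here, and p-values measure the spread between these samples. In bulk RNA a change in the makeup of the culture and a change in RNA per cell cannot be told apart.

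The 95 libraries held between 287446 and 2116383 counted reads, and 9 of them held fewer than 500000. The perturbed genes followed the labels without overlap between line and control libraries, from 0.282 times the control level for FAT1 in its knockout to 303 times for NRG1. The epithelial marker KRT5 lay at 1613 CPM or above in every library, and of 8 markers of other cell types 7 had at most 3 reads per library, with COL1A1 reaching 78. The DMSO libraries stood apart from all treated libraries in base composition. With genes split into 3 equal groups by GC content, the most GC-rich group took a median of 23.8% of reads in DMSO libraries against 29.9% with CSC, 30.0% with BaP and 30.1% with NNK, with no overlap in any of the 8 lines. The median depth was also higher with DMSO (1051108 reads) than with CSC (825587), BaP (836088) or NNK (753702). The part of base composition and depth in the treatment effects was not tested directly, and each treatment effect over all lines is therefore given with and without removal of the GC and length trend.

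The heat shock element is built from units of GAA and its reverse complement TTC that alternate with spacers of 2 bases. To show where such elements lie in the genes described here, the 250 bases upstream of each annotated start were searched on both strands for the adjacent units GAANNTTC or TTCNNGAA, each of which is its own reverse complement. RefSeq lists 16 starts for the 10 genes, of which 8 held at least 1 pair of units, against 11.6% of 35116 promoters of all genes. A pair followed after 2 bases by a further alternating unit stood upstream of HSPA8, HSP90AA1, HSP90AB1 and HSPD1, and in 0.441% of all promoters. BAG3 and HSPH1 held no match in this window. The 100 bases before the start (RefSeq, GRCh38.p14, minus strand) are shown for an HSP70 gene, an HSP90 gene and a J-domain partner, as examples of an overlapping and a separate arrangement of the pairs. Capitals mark the pairs of units with the spacers between them.
HSPA8, chr11:123062137-123062236: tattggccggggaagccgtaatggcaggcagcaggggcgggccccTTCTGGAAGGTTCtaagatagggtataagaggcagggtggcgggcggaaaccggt
HSP90AA1, chr14:102087045-102087144: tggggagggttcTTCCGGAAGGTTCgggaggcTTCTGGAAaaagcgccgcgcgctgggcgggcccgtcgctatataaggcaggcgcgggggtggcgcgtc
DNAJB1, chr19:14518398-14518497: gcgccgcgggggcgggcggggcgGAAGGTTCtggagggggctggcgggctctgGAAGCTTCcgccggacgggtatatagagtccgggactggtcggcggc
HSPA8 has 4 pairs in the 250 bases searched, and the 2 in the printed bases overlap in a run of 3 units. HSP90AA1 has 3 pairs, of which 2 overlap in such a run and the other lies apart, and the 2 pairs of DNAJB1 lie apart. These are matches of letters in the reference and not measured binding sites.

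HSPA1A and HSPA1B, a pair of stress-inducible HSP70 genes, could not be measured in these files. HSPA1A had no read in any of the 95 libraries. HSPA1B had 186 reads in all, at most 8 in a library and none in 16 libraries, and none of its comparisons over all samples passed the test. The coding sequences of the pair, each 1923 bases long on GRCh37, differ at 4 positions, and 92.5% of their 75-base windows, the length of the reads, are identical between them. An example is the window at chr6:31784389-31784463 in HSPA1A, which stands unchanged at chr6:31796583-31796657 in HSPA1B.
Shared window, plus strand: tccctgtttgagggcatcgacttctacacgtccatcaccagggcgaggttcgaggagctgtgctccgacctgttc
Over the whole transcripts, 73.8% of the windows of HSPA1A and 70.2% of those of HSPA1B had another exact copy in the primary assembly of GRCh37. The share was 22.4% for HSPD1 and at most 9.96% for the other 7 genes. Further contigs were not searched, and those in the authors' index are not given in the sources used here. Low counts were not limited to this pair. Of the 60 listed genes of the stretch that holds both, chr6:31504151-32098065, 48 had no read in any library and 56 had fewer than 10 in all. Among them was BAG6, a chaperone of tail-anchored proteins with 1 read in all and 1.09% of its windows duplicated in the same search. What set the counts in this stretch was not tested, and a count of 0 is not read here as absence of the transcript.

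The other 8 genes were well counted, with mean counts between 91.6 (HSPB1) and 2742 (HSP90AA1) reads per library. Per kilobase of transcript, HSP90AA1 was the most abundant, with a median of 829 CPM per kb, followed by HSPA8 (537), HSP90AB1 (442) and HSPD1 (194). HSPB1 (112), DNAJB1 (87.7), HSPH1 (62.0) and BAG3 (42.5) were lower. Between combinations the mean level varied least for DNAJB1, from 148 CPM in GFP cells with DMSO to 267 CPM in the CDKN2A line with BaP, a ratio of 1.81. It varied most for HSPB1, from 49.8 CPM in the CDKN2A line with DMSO to 190 CPM in the FGFR1 line with NNK, a ratio of 3.81. HSPD1 and HSP90AA1 varied by ratios of 3.06 and 3.01, and HSPA8, BAG3, HSP90AB1 and HSPH1 by 2.74, 2.26, 2.17 and 2.15.

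**Figure D1:**
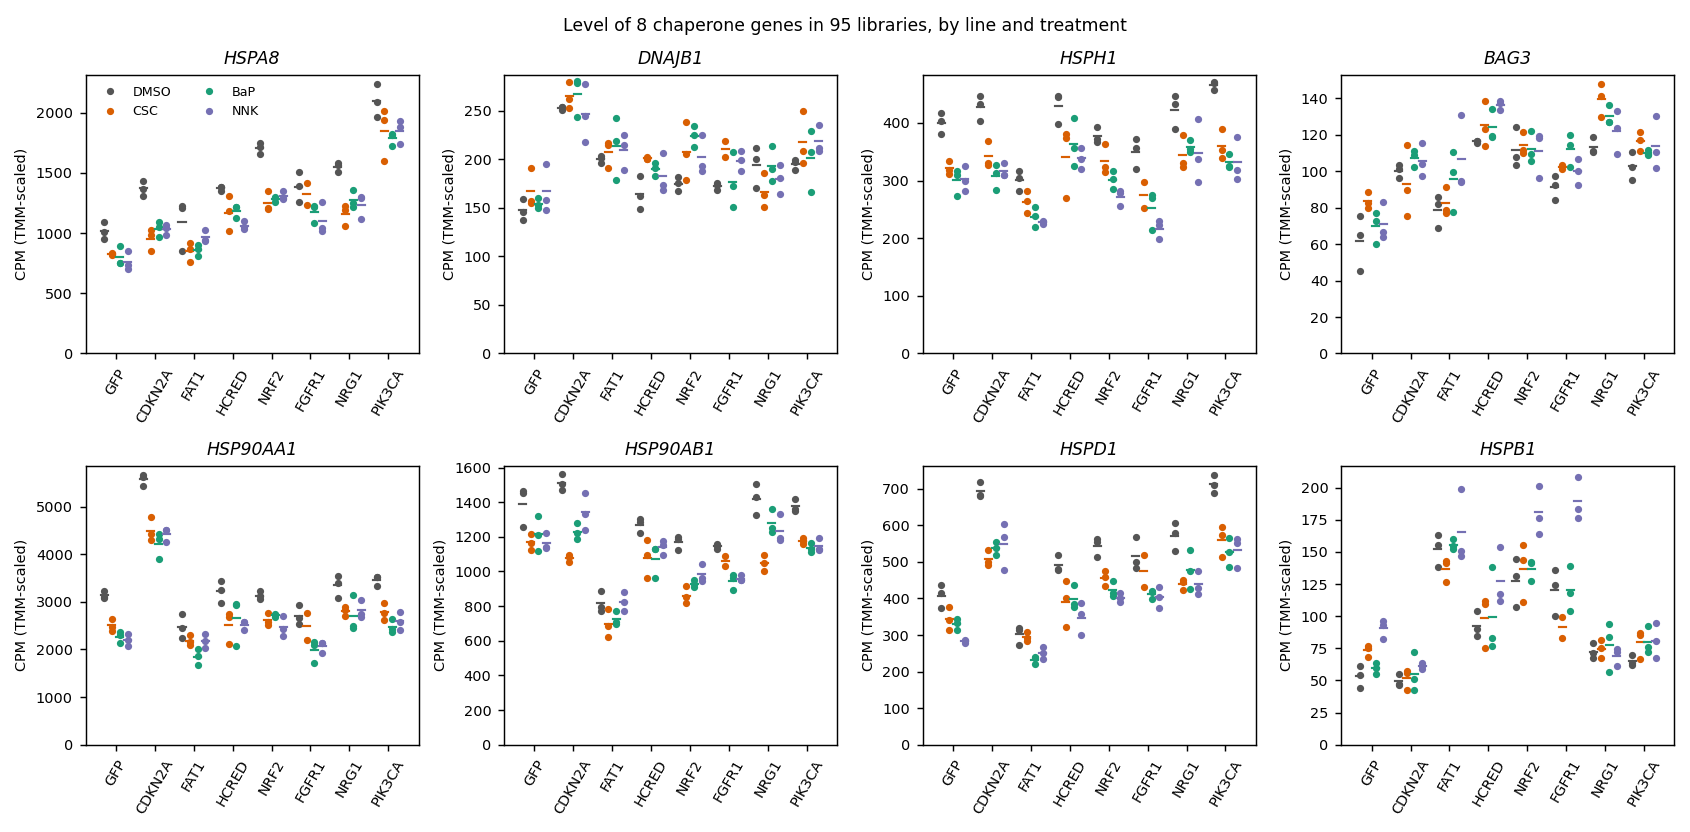
TMM-scaled CPM (y axis from 0) of 8 chaperone genes in the 95 libraries, by line (x axis) and treatment (colour), with each point a library and each bar the mean of a combination. HSP90AA1 stands highest in the CDKN2A line, HSPA8 in the PIK3CA line and HSPB1 in the FGFR1 line with NNK, and the grey DMSO points lie above the treated ones for HSPH1 and HSPD1 in most lines.

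To determine which chaperones changed with exposure, each treatment was compared with DMSO over all lines in limma-voom, with genotype in the model and Benjamini-Hochberg adjustment over 14384 genes. Some chaperones fell and others rose. HSPA8, HSPH1, HSP90AA1, HSP90AB1 and HSPD1 fell with all 3 treatments, DNAJB1 and BAG3 rose with all 3, and HSPB1 rose with NNK alone. With CSC 2 of the 9 genes tested rose and 5 fell, where 55.1% of all genes passed (28.0% higher and 27.1% lower). With BaP 2 rose and 5 fell, where 51.0% of all genes passed (26.1% higher and 24.9% lower). With NNK 3 rose and 5 fell, where 51.8% passed (26.1% higher and 25.7% lower). These shares include sparsely counted genes. With the filter raised to a mean count of 10, 6864, 6431 and 6601 of 10062 genes passed with CSC, BaP and NNK. The median log2 fold change of the 8 genes other than HSPA1B, which had 1.96 reads per library on average, was -0.28, -0.25 and -0.24, against 0.00, 0.01 and 0.00 over all genes. The 3 comparisons share their 24 DMSO libraries and are not independent. Below, libraries of 2 groups are called separate where their values did not overlap. The share of all genes that separated likewise is not given, for treatments or for lines. Such counts therefore describe a gene and do not set it apart from other genes.

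HSPA8, the constitutive HSP70 that folds new proteins and uncoats clathrin vesicles, had between 850 and 2239 CPM (median 1384) in 24 DMSO libraries. The median was 1179 CPM with CSC, 1215 with BaP and 1055 with NNK. The ranges overlapped across lines, but within lines the treated and DMSO libraries did not overlap in 5 of 8 lines with CSC and in 7 with BaP and NNK. The log2 fold changes were -0.29 ± 0.03 (SE, adjusted p = 2.13e-16), -0.28 ± 0.03 (9.69e-15) and -0.28 ± 0.03 (7.32e-15).

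HSPH1, the HSP110 exchange factor that releases nucleotide from HSP70, fell from a median of 401 CPM with DMSO to 327, 314 and 301 CPM with CSC, BaP and NNK. Treated and DMSO libraries were separate in 8 of 8 lines with CSC and in 7 with each of the others. Its log2 fold changes were -0.31 ± 0.03, -0.36 ± 0.03 and -0.43 ± 0.03 (adjusted p = 2.54e-15, 3.20e-18 and 9.49e-23).

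HSP90AA1, the stress-responsive cytosolic HSP90, fell from a median of 3167 CPM with DMSO to 2674, 2441 and 2429 CPM. The mean was lower in all 8 lines with each treatment, and the log2 fold changes were -0.27, -0.33 and -0.34, each ± 0.03 (adjusted p = 1.80e-17, 2.28e-21 and 1.10e-21). HSP90AB1, its constitutive partner, fell from 1292 CPM to 1081, 1123 and 1132 CPM, with log2 fold changes of -0.29, -0.22 and -0.19, each ± 0.03. It was lower in 8 of 8 lines with CSC and BaP and in 7 with NNK. HSPD1, the HSP60 that folds imported proteins in the mitochondrial matrix, fell from 525 to 446, 419 and 403 CPM. Its log2 fold changes were -0.28, -0.33 and -0.39, each ± 0.03, and its NNK and DMSO libraries did not overlap in any of the 8 lines.

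DNAJB1, the J-domain protein that brings clients to HSP70 and stimulates its ATPase, had a median of 182 CPM with DMSO and 202, 202 and 197 CPM with CSC, BaP and NNK. The groups overlapped in most lines, and treated and DMSO libraries were separate in 2, 2 and 3 of 8. The log2 fold changes were 0.13 ± 0.04, 0.10 ± 0.04 and 0.10 ± 0.04 (adjusted p = 0.00328, 0.0186 and 0.0207). Without the second FAT1 BaP library or the second HCRED DMSO library the BaP call of DNAJB1 was lost, and without the second GFP NNK, HCRED DMSO or PIK3CA NNK library the NNK call was lost, with a lowest log2 fold change of 0.085 over the 95 fits for either treatment.

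BAG3, an HSP70 exchange factor that leads clients to autophagy, rose from a median of 102 CPM to 111, 110 and 108 CPM, with log2 fold changes of 0.15, 0.14 and 0.15, each ± 0.05. HSPB1 (HSP27), which holds unfolded proteins without ATP and binds actin filaments, had a median of 81.7 CPM with DMSO, 82.7 with CSC, 88.1 with BaP and 104 with NNK. Its log2 fold changes were 0.036 ± 0.064 and 0.060 ± 0.065 with CSC and BaP, which did not pass the test, and 0.37 ± 0.06 with NNK (adjusted p = 2.93e-07). HSPB1 was higher with NNK in 7 of 8 lines, and in 5 of them without overlap.

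Across genes the treatment effects ran with GC content. Over 9708 genes averaging 10 or more reads per library, Spearman's rho between log2 fold change and exon GC content was 0.766 for CSC, 0.783 for BaP and 0.834 for NNK, given here as a description of genes that are not independent. With CSC the median log2 fold change was -0.24 in the lowest of the 3 GC groups and 0.34 in the highest. The chaperones that fell have exons of 38.1% (HSPH1), 42.3% (HSPD1), 45.5% (HSP90AA1), 49.1% (HSP90AB1) and 49.3% GC (HSPA8), and those that rose have 55.7% (DNAJB1), 56.5% (BAG3) and 63.6% (HSPB1).

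After removal of a smooth trend on GC content and length from each library, no chaperone rose with any treatment. With CSC 7 of the 9 genes fell, with BaP 8 and with NNK 6, where 33.4%, 24.7% and 17.6% of 13487 genes passed in either direction. HSPA8 kept its size, with log2 fold changes of -0.34, -0.32 and -0.33 for CSC, BaP and NNK, and so did HSP90AB1 with -0.31, -0.24 and -0.20. Both genes have 49% GC, where the trend was small and its removal could move them little. With CSC the median of all genes was 0.003 in the decile around 47.9% GC and 0.11 in that around 51.2%. HSP90AA1 changed to -0.20, -0.26 and -0.27. The falls of HSPD1 shrank to -0.11, -0.17 and -0.24 and those of HSPH1 to -0.036 (adjusted p = 0.383), -0.13 and -0.19.

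The GC-rich genes turned. DNAJB1 changed from rises to falls of -0.14, -0.15 and -0.17, all past the threshold, and BAG3 to -0.12 and -0.12 past the threshold with CSC and BaP and -0.10 with NNK (adjusted p = 0.101). HSPB1 changed to -0.46 with CSC and -0.39 with BaP, and its rise with NNK was lost (-0.071, adjusted p = 0.422). HSPA8, HSP90AA1, HSP90AB1, HSPD1 and HSPH1 had negative values with and without this correction.

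**Figure D2:**
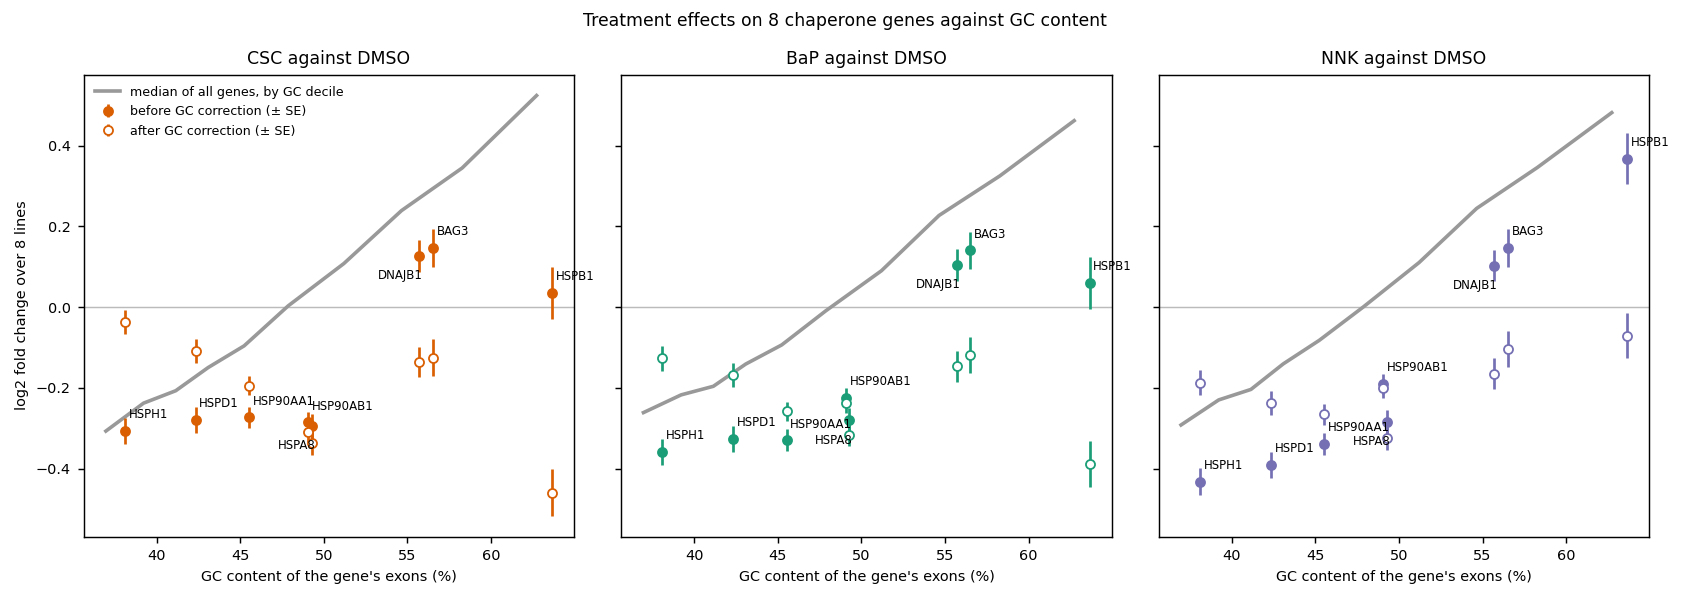
Log2 fold change against DMSO over 8 lines (y axis, ± SE) of 8 chaperone genes against the GC content of their exons (x axis, %), before (filled) and after (open) removal of the GC and length trend, with the median of all genes by GC decile as a grey line. All 8 genes lie below the grey line before correction, HSPH1 with CSC closest to it, and all open points lie below 0.

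Within single lines, where 3 treated libraries (2 for CSC in the FGFR1 line) faced 3 DMSO libraries, the falls recurred. BH adjustment ran over each comparison alone. Over the 8 well-counted genes and 8 lines, 34 of 64 comparisons with CSC passed as lower and 3 as higher, against 16.3% of all gene comparisons in either direction. With BaP 34 passed as lower and 1 as higher (background 10.3%), and with NNK 37 and 4 (10.1%). The calls in either direction, 37, 35 and 41 for CSC, BaP and NNK, were 26, 24 and 24 after the GC correction and 24, 20 and 31 with DESeq2. The background shares above belong to the main fit. Those of the GC-corrected and DESeq2 fits within lines are not given, so these counts cannot be set against all genes. Of the 24 comparisons of each gene, HSP90AA1 passed as lower in 23, HSPA8 in 22, HSPD1 and HSPH1 in 20 and HSP90AB1 in 19, with none of the 5 passing as higher. BAG3 passed as higher in 1, DNAJB1 in 2 and HSPB1 in 5, with HSPB1 lower in 1, the FGFR1 line with CSC.

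Line by line, the number of the 8 genes that passed with CSC was 7 in GFP cells, where 25.0% of all genes passed, 5 in the CDKN2A line (11.2%), 3 in the FAT1 line (12.7%) and 6 in HCRED cells (23.8%). It was 4 in the NRF2 line (9.10%) and 2 in the FGFR1 line (11.7%), which had 2 CSC libraries. It was 5 in the NRG1 line (13.9%) and 5 in the PIK3CA line (22.6%). With BaP, in the same order, it was 4 (11.0%), 5 (18.6%), 4 (15.1%), 4 (4.72%), 6 (8.51%), 5 (5.43%), 2 (7.81%) and 5 (10.9%). With NNK it was 6 (18.2%), 5 (5.42%), 2 (10.2%), 6 (16.4%), 6 (6.90%), 6 (7.84%), 5 (6.43%) and 5 (9.74%). The share of chaperones that passed was above the share of all genes in each of these 24 comparisons. All genes here include those with a mean count just above 1, so the shares are not matched for abundance. The 3 treatments of a line also share their DMSO libraries. The rises of HSPB1 with NNK were called in GFP (0.75 ± 0.18), FGFR1 (0.67 ± 0.12), HCRED (0.49 ± 0.15) and NRF2 cells (0.49 ± 0.13). None of these 4 passed after the GC correction, with values of 0.079, 0.22, -0.11 and 0.098 in the same order.

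The size of the CSC effect differed between lines for HSPA8 and HSP90AB1, by an F test of the 7 interaction terms (adjusted p = 0.0118 and 0.00265), which 0.779% of all genes passed. In the CDKN2A line HSPA8 had 1436, 1310 and 1367 CPM with DMSO and 1028, 987 and 849 with CSC, a log2 fold change of -0.55 ± 0.05. In the FGFR1 line it had 1256, 1387 and 1510 CPM with DMSO and 1236 and 1413 with CSC, which overlapped, a log2 fold change of -0.027 ± 0.060. The other lines lay between, from -0.45 ± 0.04 in the NRF2 line to -0.24 ± 0.04 in the PIK3CA line.

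HSP90AB1 had the same lines at both ends. In the CDKN2A line it had 1503, 1469 and 1563 CPM with DMSO and 1093, 1053 and 1081 with CSC, a log2 fold change of -0.48 ± 0.05 without overlap. In the FGFR1 line it had 1158, 1128 and 1150 CPM with DMSO and 1034 and 1088 with CSC, which did not overlap, a log2 fold change of -0.099 ± 0.061 (adjusted p = 0.322). The FGFR1 line is the one with 2 CSC libraries. Neither passed without the libraries of replicate number 3 (adjusted p = 0.351 for HSPA8 and 0.469 for HSP90AB1), a fit that leaves 1 CSC library in the FGFR1 line and assumes that it varies like the other groups. Neither passed with edgeR's quasi-likelihood test (0.167 and 0.189). After the GC correction that of HSPA8 passed (0.0350) and that of HSP90AB1 did not (0.0584).

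No chaperone passed the F test for BaP, which 0.327% of all genes passed, or for NNK (0.0695%).

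**Figure D3:**
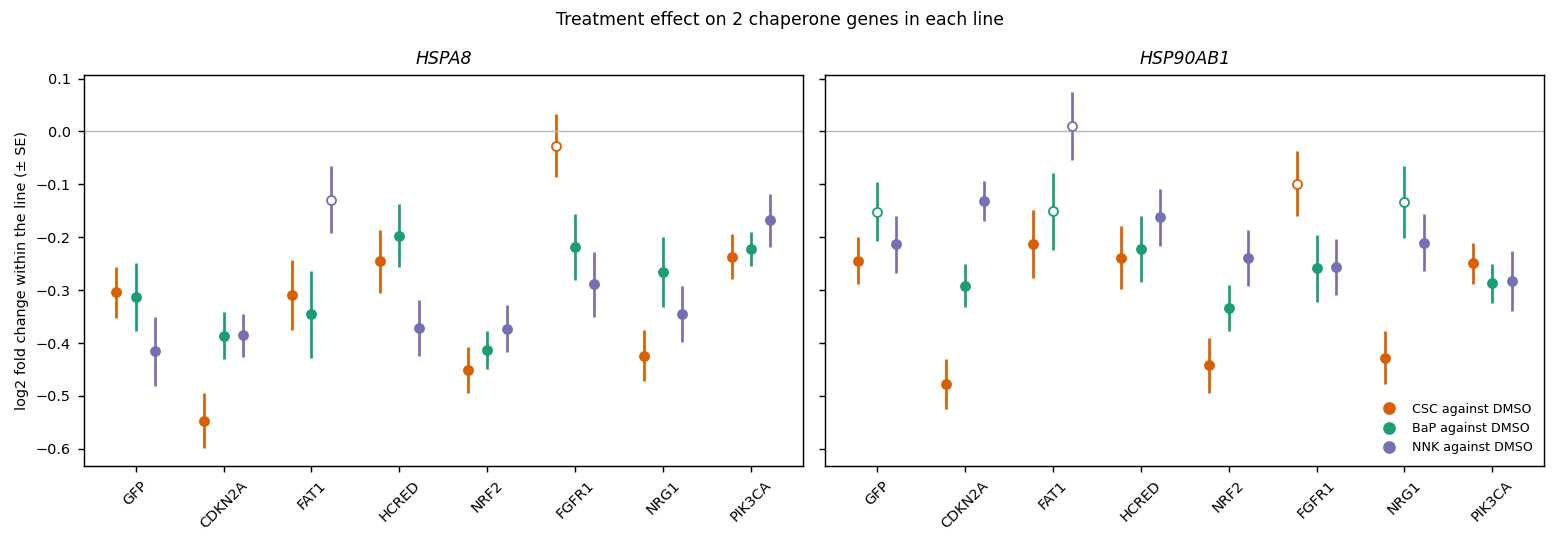
Log2 fold change against DMSO within each of 8 lines (x axis) for HSPA8 and HSP90AB1, with bars for ± SE, colours for treatments and open circles for adjusted p of 0.05 or above. With CSC the CDKN2A line lies lowest for both genes and the FGFR1 line closest to 0.

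To determine which chaperones differed between lines, each perturbed line was compared with its control over all 4 treatments, with treatment in the model. The CDKN2A and FAT1 comparisons share the GFP libraries and the other 4 share the HCRED libraries. Line effects followed GC content less closely than treatment effects did, with rho between -0.0943 and 0.237. In the CDKN2A line HSP90AA1, HSPD1, DNAJB1, BAG3 and HSPA8 rose and HSPB1 fell, 6 of 9 genes tested, where 57.7% of all genes passed (29.4% higher and 28.3% lower). With the filter raised to a mean count of 10, 6742 of 10062 genes passed, a share near that of the chaperones. The median log2 fold change of the 8 genes other than HSPA1B was 0.43, against 0.00 over all genes.

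HSP90AA1 had 5655, 5434 and 5626 CPM in the CDKN2A line with DMSO and 3232, 3099 and 3080 in GFP cells. The line lay above its control without overlap under each of the 4 treatments, with a log2 fold change of 0.88 ± 0.04 (adjusted p = 1.86e-46), or 1.83-fold. HSP90AB1, its close relative, had 1503, 1469 and 1563 CPM against 1463, 1455 and 1255, and its log2 fold change over all treatments was 0.076 ± 0.035 (adjusted p = 0.0511). That result lay close to the threshold and passed in 47 of 95 fits that each left out 1 library, with log2 fold changes between 0.044 and 0.098. It averages differences in both directions. The mean of HSP90AB1 was higher than in GFP cells under 3 treatments and lower with CSC (1076 CPM against 1168). The libraries of line and control did not overlap under 3 of the 4 treatments.

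HSPD1 had 681, 679 and 717 CPM in the CDKN2A line with DMSO against 414, 436 and 374 in GFP cells, and a log2 fold change of 0.76 ± 0.05. DNAJB1 had 254, 254 and 251 CPM against 138, 159 and 146, and a log2 fold change of 0.71 ± 0.06. Both were separate from the control under all 4 treatments. BAG3 rose by 0.50 ± 0.07 and HSPA8 by 0.36 ± 0.05 on the log2 scale, HSPB1 fell by 0.33 ± 0.11 (adjusted p = 0.00899), and HSPH1 did not pass (0.084 ± 0.048). After the GC correction HSPH1 passed as higher (0.20 ± 0.04).

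The FAT1 line had the largest change of HSPB1 and of HSP90AB1. DNAJB1, BAG3 and HSPB1 rose and HSPH1, HSP90AA1, HSP90AB1 and HSPD1 fell, 7 of 9 genes where 47.8% of all genes passed (24.7% higher and 23.1% lower). With the filter raised to a mean count of 10, 5828 of 10062 genes passed. HSPB1 had 156, 138 and 163 CPM in the FAT1 line with DMSO and 54.4, 44.05 and 61.4 in GFP cells, with no overlap under any treatment. Its log2 fold change was 1.15 ± 0.09 (adjusted p = 1.50e-21), or 2.21-fold, and 0.89 ± 0.08 after the GC correction. HSP90AB1 had 773, 889 and 797 CPM against 1463, 1455 and 1255, again without overlap under any treatment, and fell by 0.70 ± 0.04 (adjusted p = 1.49e-33).

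HSPH1 and HSPD1 each fell by 0.35 and HSP90AA1 by 0.24 in the FAT1 line, while DNAJB1 and BAG3 rose by 0.40 ± 0.06 and 0.32 ± 0.08. HSPA8 did not pass (0.10 ± 0.05, adjusted p = 0.104), but passed in the fit without the first FAT1 DMSO library, which had 850 CPM against 1221 and 1204 in the others. Over the 95 fits the log2 fold change lay between 0.074 and 0.15. Side by side, HSP90AA1 was at 0.88 in the CDKN2A line and -0.24 in the FAT1 line, and HSPB1 at -0.33 and 1.15. The difference between the 2 knockouts themselves was not tested.

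In the 4 overexpression lines between 4 and 6 of the 9 genes passed. With the filter raised to a mean count of 10, 3492 of 10062 genes passed in the PIK3CA line and 2816 in the NRF2 line. In the FGFR1 and NRG1 lines 1811 and 1677 passed with that filter. In the PIK3CA line, HSPA8, HSPD1 and DNAJB1 rose and HSPB1 and BAG3 fell, 5 of 9 genes where 27.7% of all genes passed (14.3% higher and 13.5% lower). HSPA8 had 2239, 2086 and 1961 CPM with DMSO against 1379, 1351 and 1381 in HCRED cells and was separate under all 4 treatments, with a log2 fold change of 0.64 ± 0.04 (adjusted p = 1.56e-31). HSPD1 had 737, 711 and 687 CPM against 520, 479 and 478, also separate under all 4 treatments, with a log2 fold change of 0.51 ± 0.04. DNAJB1 rose by 0.16 ± 0.05, HSPB1 fell by 0.39 ± 0.09 and BAG3 fell by 0.18 ± 0.06. Without the libraries of replicate number 2 the count was 3, with DNAJB1 at 0.070 and BAG3 at -0.15 no longer past the threshold.

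In the NRF2 line HSPB1 rose by 0.52 ± 0.08, HSPA8 by 0.20 ± 0.04 and HSPD1 by 0.16 ± 0.05, and HSP90AB1 and HSPH1 fell by 0.22 and 0.20, 5 of 9 genes where 21.7% of all genes passed (10.2% higher and 11.5% lower). HSPB1 had 145, 131 and 107 CPM with DMSO against 84.2, 104 and 90.1 in HCRED cells, with no overlap there and in 2 of 4 treatments in all.

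In the FGFR1 line HSPB1 and HSPD1 rose by 0.31 and 0.15, and HSPH1, BAG3, HSP90AA1 and HSP90AB1 fell by 0.41, 0.31, 0.22 and 0.15, 6 of 9 genes where 13.9% of all genes passed (7.13% higher and 6.74% lower). The HSPD1 call was lost without the third FGFR1 CSC library or the first HCRED CSC library, and the log2 fold change lay between 0.10 and 0.19 over the 95 fits.

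In the NRG1 line HSPD1, HSP90AB1 and HSPA8 rose by 0.26, 0.13 and 0.12 and HSPB1 fell by 0.50, 4 of 9 genes where 12.2% of all genes passed (6.44% higher and 5.74% lower). Without the libraries of replicate number 1 only HSPB1 passed (-0.41), and HSPD1, HSP90AB1 and HSPA8 had values of 0.15, 0.074 and 0.064. The HSPA8 call (adjusted p = 0.0459) was lost in 50 of 95 fits that each left out 1 library, with log2 fold changes between 0.11 and 0.14. HSPD1 passed as higher in 5 of the 6 lines and lower in FAT1, and HSPB1 passed in all 6, higher in FAT1, NRF2 and FGFR1 and lower in CDKN2A, NRG1 and PIK3CA. In the FGFR1 line HSPD1 overlapped its control under each of the 4 treatments. With DMSO alone HSPD1 passed as higher in 2 of the 6 lines and lower in 1, and HSPB1 likewise as higher in 2 and lower in 1.

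**Figure D4:**
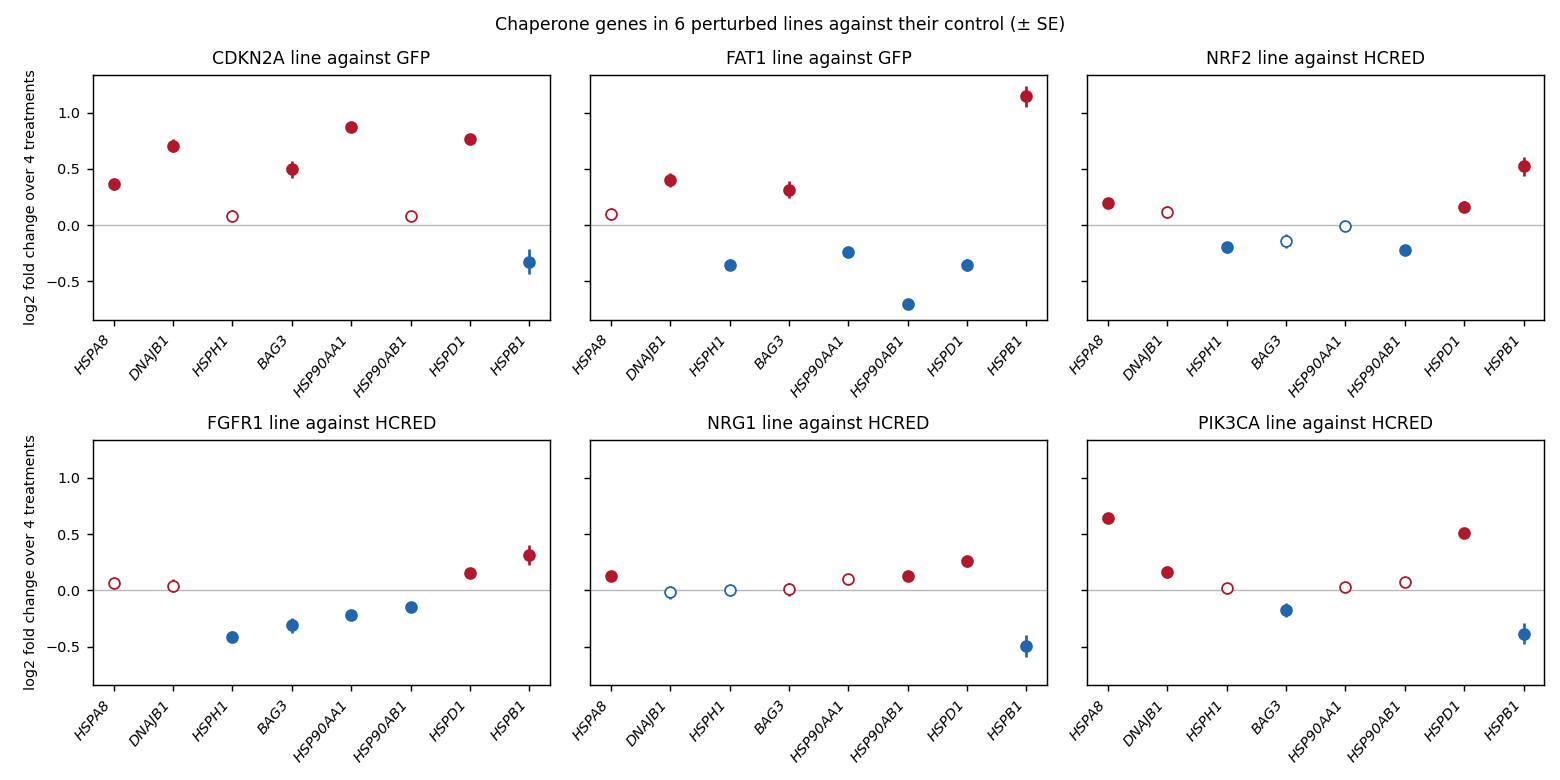
Log2 fold change against the control line over 4 treatments (y axis, ± SE) of 8 chaperone genes (x axis) in 6 perturbed lines, red for higher and blue for lower, with open circles for adjusted p of 0.05 or above. The rises of HSP90AA1, HSPD1 and DNAJB1 in the CDKN2A line, of HSPB1 in the FAT1 line and of HSPA8 and HSPD1 in the PIK3CA line stand out, as does the fall of HSP90AB1 in the FAT1 line.

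With DMSO alone, in comparisons of 3 against 3 libraries, 20 of 48 comparisons of a chaperone in a line passed, against 14.0% of all gene comparisons. In the CDKN2A line 6 of 8 passed, all higher (37.2% of all genes), in the FAT1 line 6 (26.3%) and in the PIK3CA line 3 (8.60%). In the NRF2 line 2 passed (7.16%), in the FGFR1 line 2 (1.86%) and in the NRG1 line 1 (2.04%). HSPB1 in the FAT1 line had the largest log2 fold change, 1.48 ± 0.14.

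Other genes of the chaperone system were taken from a list of 54 chaperones, co-chaperones, heat shock factors and protein quality control genes, of which 51 passed the filter. With CSC 11 rose and 26 fell, with BaP 13 and 27, and with NNK 10 and 28, where 55.1%, 51.0% and 51.8% of all genes passed. The medians were -0.14, -0.14 and -0.17 on the log2 scale. After the GC correction 8 rose and 20 fell with CSC, 8 and 21 with BaP, and 4 and 17 with NNK, where 33.4%, 24.7% and 17.6% of all genes passed. HSF1, the main regulator of the heat shock response, rose by 0.42, 0.34 and 0.42 with CSC, BaP and NNK, but after the GC correction its values were -0.17 and -0.19, both past the threshold, and -0.12 (adjusted p = 0.149). HSF2, its relative, did not pass with any treatment.

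Among listed genes averaging 10 or more reads, the largest rises were those of SQSTM1, the autophagy receptor p62, by 1.005 ± 0.039 with CSC and 1.17 ± 0.04 with BaP. They stayed at 0.67 and 0.85 after the GC correction. HSPBP1, an HSP70 exchange factor, rose by 0.76 with CSC and 0.62 with BaP. With NNK the largest rises were those of HSPBP1 (0.67) and STUB1, the ubiquitin ligase CHIP (0.61). After the GC correction HSPBP1 passed with CSC alone (0.25, against 0.16 with BaP and 0.22 with NNK), and STUB1 with NNK did not pass (0.11).

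The largest falls with CSC were those of DNAJB4, a J-domain protein, HSPE1, the HSP10 partner of HSPD1, and PPID, a prolyl isomerase bound to HSP90, all by 0.51. With BaP they were those of CHORDC1, an HSP90-binding protein (-0.50), PPID (-0.38) and HSPA4L, an HSP110 relative (-0.37). With NNK they were those of CHORDC1 (-0.49), CACYBP, the calcyclin binding protein (-0.47), and DNAJB4 (-0.45). After the GC correction HSPE1 with CSC was at -0.47 and the others lay between -0.32 and -0.13, with DNAJB4 under NNK no longer past the threshold (adjusted p = 0.0570).

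For 3 listed genes the treatment effects differed between lines. FKBP5, a partner of HSP90 in steroid receptor complexes, fell with CSC by 0.65 ± 0.05 in the NRF2 line and by 0.34 or less in the others, and with BaP by 0.74 ± 0.05 in the NRF2 line and 0.28 or less elsewhere (adjusted p of the F test = 0.00149 and 1.05e-08). SQSTM1 with CSC ranged from 0.73 in the FAT1 line to 1.38 in GFP cells (0.0191), and HSF1 from 0.10 in the NRF2 line to 0.93 in the NRG1 line (0.0193). After the GC correction FKBP5 passed with both treatments and SQSTM1 and HSF1 did not.

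Between lines, 28 of the 51 genes rose and 11 fell in the CDKN2A line, with a median log2 fold change of 0.37 against 0.00 over all genes, where 57.7% of all genes passed. In the FAT1 line 18 rose and 14 fell (47.8% of all genes passed), and in the PIK3CA line 19 and 4 (27.7%). The NRF2, FGFR1 and NRG1 lines had 10 and 9, 5 and 7, and 7 and 4, where 21.7%, 13.9% and 12.2% of all genes passed. HSF1 rose by 0.88 in the CDKN2A line, by 0.63 in the FAT1 line and by 0.25 in the NRF2 line (adjusted p = 0.0254), the last no longer past the threshold after the GC correction, which brought HSF1 in the PIK3CA line past it (0.18, adjusted p = 0.0419). HSF2 rose by 0.41 in the CDKN2A line and passed in no other.

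As a description, the genes whose mean log2 CPM over the 32 combinations followed each chaperone most closely were found among 10062 genes averaging 10 or more reads. For HSPD1 they were HSP90B1, the HSP90 of the endoplasmic reticulum (Pearson's r = 0.947), UBA6 (0.936) and PAICS (0.930). HSPA8 was followed by TOP1 (0.932), HSPA4 (0.920), another HSP110, and CCNA2 (0.914), and HSP90AA1 by ATP13A3 (0.944), GFM1 (0.937) and PAK2 (0.935). For HSP90AB1 they were SMS, DDX18 and ACTR3 (0.886 to 0.901), for HSPH1 UGP2, CWC22 and RANBP2 (0.830 to 0.888) and for DNAJB1 PREB, KLHL29 and DHRS7B (0.843 to 0.873). For BAG3 they were PTMS, POLR1A and AXIN1 (0.866 to 0.876), and for HSPB1 HECTD4, CXXC5 and SHPK (0.839 to 0.862). The combinations share their lines, treatments and base composition, and these correlations carry no test.

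Some of these genes have near copies. Of the listed copies, HSPA1L, which lies in the same stretch of chromosome 6 as HSPA1A, had no read, HSPA7 at most 3 in a library and HSP90AB4P at most 13. The duplicated share of windows was highest, among the well-counted genes, for HSPD1 (22.4%), then HSP90AA1 (9.96%), HSPB1 (9.53%), HSP90AB1 (8.38%) and HSPA8 (7.76%), and whether reads of these stretches were lost or split was not tested.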

How the data were processed

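SFL libraries of AALE cells were deposited as 1 table of raw counts per sample. Per the labels and the study's methods, the authors trimmed reads with cutadapt 1.12, checked them with FastQC 0.11.5, aligned them with STAR 2.5.2b to hg19 and used featureCounts on RefSeq genes. The setting for strand and for reads with several alignments is not given in the sources used here. Counts above a mean of 1 were normalized with TMM (edgeR 4.0.16) and tested with limma-voom (limma 3.58.1, R 4.3.3), 2-sided, at 0.05 after Benjamini-Hochberg adjustment. Fits used all 95 samples with genotype and chemical as terms, the 32 group means for differences between lines, or only the 2 groups compared. The alternatives included edgeR's quasi-likelihood test, DESeq2 1.42.0, other scalings and filters, a replicate block, and removal from each library of a loess trend (span 0.3) on GC content and exon length. GC content was matched for 86.9% of symbols on GRCh37. Depth was between 287446 and 2116383 reads. Scripts were tested on simulated data.

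Groups and replicate numbers were taken from the sample labels. The genes, lists and tests were chosen with earlier results of these data known. Named were the 10 genes in every comparison, HSF1 and HSF2, the 3 largest rises and falls of the pathway list per treatment past 0.05 that average 10 or more reads, listed genes with a difference between lines past 0.05, near copies, the 3 genes most like each chaperone, and perturbed or marker genes as a check of the labels. One gene that the rule names is not reported here. BAG6, a gene of the same stretch of chromosome 6, falls outside this rule and was chosen after its values were seen. Replicate numbers did not pair the samples: deviations from the group means of libraries with the same number had a mean correlation between -0.0229 and 0.115 over 30 comparisons, and in 0 of them was every pair over 0.1. Upstream sequences were taken from RefSeq promoters, matched by symbol for 10 of 10 genes.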

Additional observations from a re-analysis of the deposited data

Results flagged for a closer look

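The effect of CSC on HSPA8 differed between the 8 lines by the F test of the interaction terms (adjusted p = 0.0118). So did the effect of CSC on HSP90AB1 (adjusted p = 0.00265). For both genes the CDKN2A line had the strongest fall and the FGFR1 line, with 2 CSC libraries, the weakest, and neither difference passed with edgeR's quasi-likelihood test (0.167 and 0.189).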

How the results depend on the processing

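Among the alternatives run, changes of direction came with removal of the GC and length trend. Over all lines it turned DNAJB1 to -0.14, -0.15 and -0.17 with CSC, BaP and NNK, BAG3 to -0.12, -0.12 and -0.10, and HSPB1 to -0.46, -0.39 and -0.071 (with the replicate block -0.14, -0.15 and -0.16 for DNAJB1, -0.13, -0.12 and -0.11 for BAG3, and -0.45, -0.39 and -0.069 for HSPB1). Within lines it turned HSPH1 with CSC in GFP to 0.0085 (0.0072 with the block), HSPB1 with CSC in GFP to -0.10 (-0.096), DNAJB1 with CSC in HCRED to -0.088 (-0.084) and HSPB1 with NNK in HCRED to -0.11 (-0.12). It left 24 member calls with NNK within lines (26 with the block) of 41, 1 difference between lines with CSC (1 with the block) of 2, and 21 of 38 pathway genes with NNK (21 with the block).

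The replicate block alone, used although the numbers did not pair the samples, left the member counts at 7, 7 and 8 for CSC, BaP and NNK over all lines and at 36, 36 and 43 within lines. Over all lines 7901, 7328 and 7435 of 14384 genes passed with the block. DESeq2 gave 24 member calls with CSC and 20 with BaP within lines, against 37 and 35, and edgeR's quasi-likelihood test gave 0 differences between lines with CSC. Other scalings and filters changed no direction of a called gene.

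Without the libraries of one replicate number, or without those under 500000 reads, member counts over all lines or treatments were 6 to 7 with CSC, 6 to 7 with BaP, 6 to 8 with NNK, 5 to 7 for CDKN2A, 7 to 8 for FAT1, 4 to 5 for NRF2, 4 to 6 for FGFR1, 1 to 4 for NRG1 (1 without replicate 1) and 3 to 5 for PIK3CA (3 without replicate 2). Within lines, where only replicate numbers were left out, they were 27 to 34 with CSC, 26 to 29 with BaP, 28 to 39 with NNK and 17 to 20 for lines with DMSO. Differences between lines numbered 0 to 3 with CSC and 0 with BaP and NNK, and pathway genes 33 to 38, 34 to 39 and 35 to 37. For the fits that leave libraries out, and for the alternative counts within lines, the shares of all genes are not given. These counts show only how the main counts moved. HSPA1A was not tested, and at 1.96 reads per library HSPA1B allowed only wide errors.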
